A study of Homo sapiens with 6 samples.

Results

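The genes described here are the zinc finger genes of human chromosome 19 that carry a ZNF symbol, in Kasumi-1 cells in which JMJD1C had been targeted with short hairpin RNAs. They were chosen by name and position alone, as every row whose symbol is ZNF followed by digits and an optional final A, B or C and whose locus lies on chromosome 19. The rule gave 252 of the 62016 gene rows in each of 3 deposited tables, with 245 distinct symbols. The JMJD1C tables compare JMJD1C shRNA63 and JMJD1C shRNA95, each against control shRNA, 4 days after infection with pLKO virus, and 2 libraries were made for each of the 3 groups. Kasumi-1 is an established myeloblast line from acute myeloblastic leukemia, and all 6 libraries come from it, so every group carries its AML1-ETO fusion. The third table compares an AML1-ETO shRNA with its own control, 1 library each, taken from another published series. Whether both libraries of a group derive from 1 culture or from 2 is not given in the labels, so the deposited p-values may measure technical spread only.

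Most zinc finger genes of this chromosome stand in tandem clusters that arose by repeated duplication, and many of their proteins carry a KRAB domain beside an array of C2H2 fingers. The KRAB domain binds TRIM28, which brings in the H3K9 methyltransferase SETDB1 and HP1 proteins, so these factors are known chiefly as repressors. The clusters themselves are known to carry H3K9 methylation over the gene bodies and 3′ ends. JMJD1C belongs to the KDM3 family, whose other members remove H3K9 methyl groups. H3K9 methylation was not measured in these files.

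The JMJD1C tables hold 1 FPKM value for each group of 2 libraries, so no spread between libraries can be shown. FPKM counts sequenced fragments scaled for transcript length and library size. Errors of log2 fold changes are the size of the change divided by the authors' test statistic, and a gene was called where their q-value was under 0.05. Changes of whole lists are given as the log2 ratio of FPKM + 1, which understates changes of weakly expressed genes. In bulk RNA, fewer cells of a type and less RNA per cell cannot be told apart.

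The targeted gene checks only one hairpin. JMJD1C stood at 13.7 FPKM with shRNA63 against 30.4 FPKM in the control, and its log2 fold change was -1.15 (error 0.30, q = 0.00214) in the authors' deposited table. With shRNA95 it stood at 25.1 FPKM against 29.4 FPKM in the control, and the authors' deposited table gives a change of -0.23 on the log2 scale (error 0.30, q = 0.938), so every direction given for shRNA95 rests on the label of its libraries. Read counts are not given, and a depth estimated from untested genes was 0.79 times that of the control for shRNA63 and 0.71 times for shRNA95. Of 6 myeloblast markers 5 were detected, and single ones changed in opposite directions in the authors' deposited tables. PTPRC, which encodes CD45, rose to 23.0 FPKM with shRNA63, against 7.495 FPKM in the control, and to 44.7 FPKM with shRNA95, against 7.26 FPKM in the control. CD33 rose with shRNA63 (35.4 FPKM against 19.8 FPKM in the control) and KIT fell with shRNA63 (133.8 FPKM against 245.2 FPKM in the control), neither called with shRNA95. CD34 stood at 103.2 FPKM with shRNA63 against 150.7 FPKM in the control, without a call, and rose to 248.97 FPKM with shRNA95, against 146.1 FPKM in the control. RUNX1T1 stood at 120.9 FPKM with shRNA63 against 102.5 FPKM in the control. With shRNA95 it stood at 73.3 FPKM against 99.4 FPKM in the control, and neither was called. The part of these markers in the results was not tested. MPO was listed at 0 in a row the authors had marked as having too much data, so it checks nothing. Summed erythroid and B cell markers stayed under 2 FPKM in every group. The 4 markers of a kidney producer line summed to between 16.3 and 19.7 FPKM, most of it EPCAM. In the control of the shRNA63 table EPCAM stood at 14.4, CDH2 at 4.20, KRT8 at 0.493 and KRT18 at 0.0316 FPKM. CDH2 was called lower with shRNA63, at 2.11 FPKM (q = 0.00214, authors' deposited table). The 2 T cell markers summed to 2.57 FPKM (shRNA63) and 1.81 FPKM (shRNA95) against 8.98 and 8.71 FPKM in the control, nearly all of it CD3D, and whether this has a part in the results below was not tested.

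The authors tested 192 of the 252 members with shRNA63 and 191 with shRNA95. Measured means tested with at least 1 FPKM in the higher group, and 160 and 153 members met this. Of those measured with shRNA63, 7 reached 1 FPKM only in the shRNA63 group and none only in the control. With shRNA95 1 did so only in the shRNA95 group and 6 only in the control. Just inside the limit in the shRNA63 table were ZNF470 (1.06 FPKM with shRNA63 against 0.973 FPKM in the control) and ZNF737 (1.11 FPKM with shRNA63 against 0.810 FPKM in the control), and just outside were ZNF763 (0.954 FPKM with shRNA63 against 0.964 FPKM in the control) and ZNF540 (0.891 FPKM with shRNA63 against 0.415 FPKM in the control). In the shRNA95 table ZNF429 (1.02 FPKM with shRNA95 against 0.821 FPKM in the control) and ZNF837 (0.670 FPKM with shRNA95 against 1.05 FPKM in the control) were just inside, and ZNF547 (0.731 FPKM with shRNA95 against 0.980 FPKM in the control) and ZNF470 (0.617 FPKM with shRNA95 against 0.943 FPKM in the control) just outside. The median control level of measured members was 4.12 FPKM in the shRNA63 table, against 14.3 FPKM for the other chromosome 19 genes.

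A few members stood far above that level. ZNF146, which encodes a protein made almost entirely of zinc fingers, had the highest control level, with 97.6 FPKM with shRNA63 against 88.7 FPKM in the control in the authors' deposited table. ZNF428 followed with 81.8 FPKM with shRNA63 against 76.9 FPKM in the control. ZNF544, ZNF581 and ZNF101 came next in the control, at 34.2, 24.3 and 22.3 FPKM. None of these 5 was called with either hairpin in the authors' deposited tables.

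Members lie close to paralogs, and their reads can be hard to place. Of the 252 members, 177 share their locus entry with another gene, and 7 symbols appear on 2 rows each. No source used here states whether reads were counted by strand, so reads of overlapping genes may not be separable. ZNF788 is one of the repeated symbols. One of its rows stood at 10.5 FPKM with shRNA95 against 3.22 FPKM in the control and the other at 2.84 FPKM with shRNA95 against 8.62 FPKM in the control in the authors' deposited table, and these rows were the highest and the lowest of all members there. They overlap on chr19:12203078-12267546 in hg19, and neither was called, so both values are uncertain.

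With shRNA63 10 of the 160 measured members were called higher, or 6.25%, and none lower. Over all measured genes 2.49% were called higher and 3.25% lower. Of the 10 called members 8 stood under 2 FPKM in the control, and calls by level are given below. At an unadjusted p under 0.05, 31 members were higher and 2 lower, against 6.99% and 7.39% of all measured genes. Among 933 other measured chromosome 19 genes 21 were called higher and 27 lower.

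The called members fall in 3 places, with 4 near the middle of the long arm, 5 towards its end and ZNF808 between them. ZNF155, at chr19:44472014-44506988 (hg19), had the largest deposited log2 fold change of them. It stood at 3.15 FPKM with shRNA63 against 1.11 FPKM in the control, a log2 fold change of 1.51 (error 0.46, q = 0.00981) in the authors' deposited table. ZNF222, in the same cluster, stood at 3.53 FPKM with shRNA63 against 1.52 FPKM in the control (log2 fold change 1.22, error 0.45, q = 0.0432, authors' deposited table). ZNF221 stood at 1.27 FPKM with shRNA63 against 0.628 FPKM in the control, with a log2 fold change of 1.01 (q = 0.00391) in the authors' deposited table. ZNF226 stood at 8.53 FPKM with shRNA63 against 4.33 FPKM in the control (q = 0.0350, authors' deposited table) and was the most abundant of the called members. All 4 are C2H2 genes of one tandem cluster, and each was about doubled or more, with ratios between 1.97 and 2.84 times control.

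Of the 5 towards the end of the arm, ZNF416 and ZNF329 had the smallest q that the shRNA63 table holds. ZNF416, on the shared locus chr19:58082934-58105145 (hg19), stood at 2.36 FPKM with shRNA63 against 1.21 FPKM in the control, a log2 fold change of 0.97 (error 0.28, q = 0.00214) in the authors' deposited table. ZNF329 stood at 3.09 FPKM with shRNA63 against 1.53 FPKM in the control (log2 fold change 1.02, error 0.30, authors' deposited table). ZNF530 stood at 2.73 FPKM with shRNA63 against 1.22 FPKM in the control (log2 fold change 1.16, error 0.39, q = 0.0146, authors' deposited table). ZNF256, a gene cloned from bone marrow, stood at 2.25 FPKM with shRNA63 against 1.26 FPKM in the control (q = 0.00554, authors' deposited table). ZNF304, a KRAB factor known to direct corepressors to a tumour suppressor locus in other cancer cells, stood at 4.72 FPKM with shRNA63 against 2.82 FPKM in the control, a log2 fold change of 0.74 (error 0.27, q = 0.00704) in the authors' deposited table. ZNF808, a gene needed for human pancreas development, stood at 1.32 FPKM with shRNA63 against 0.604 FPKM in the control (log2 fold change 1.13, error 0.45, q = 0.0195, authors' deposited table). ZNF808 and ZNF221 were measured only through the shRNA63 group, so their place among the measured members already needed a difference.

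**Figure D1:**
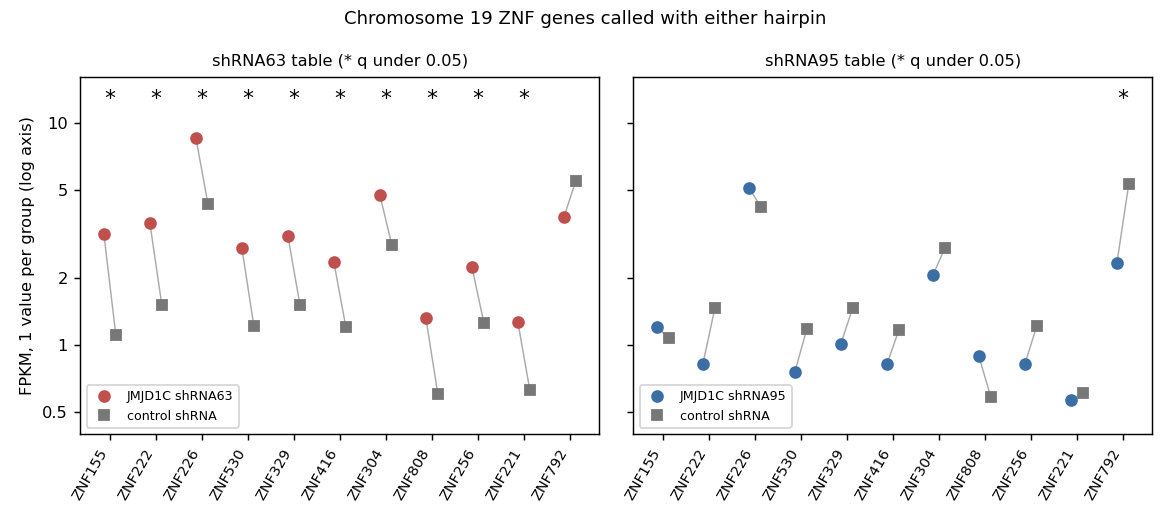
FPKM of the 11 ZNF genes of chromosome 19 called with either hairpin, 1 combined value per group on a log axis, with the JMJD1C hairpin (circles) left of the control shRNA (squares) for each gene. With shRNA63 10 of them stand above the control and are called; with shRNA95 only ZNF792 is called, at 2.34 FPKM against 5.33 FPKM in the control.

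The median of the list lay on the same side of 0 as its calls. The median log2 ratio of the 160 measured members was 0.22 with shRNA63, and 124 were positive and 36 negative. The same median was 0.01 for the 933 other chromosome 19 genes, of which 479 were positive, and 0.01 for all 14475 measured genes. On the deposited log2 fold change the members' median was 0.29. These are descriptions of lists, with no test of the list. The error of a single member's log2 fold change had a median of 0.44.

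ZNF genes elsewhere in the genome had a smaller median. Of 214 measured ZNF genes on other chromosomes 138 were positive with shRNA63, with a median of 0.07, and 9 were called higher and none lower. Inside the chromosome 19 clusters, 80 measured genes that are not C2H2 genes by name had a median of -0.02, with 37 positive, 2 called higher and 1 lower.

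**Figure D2:**
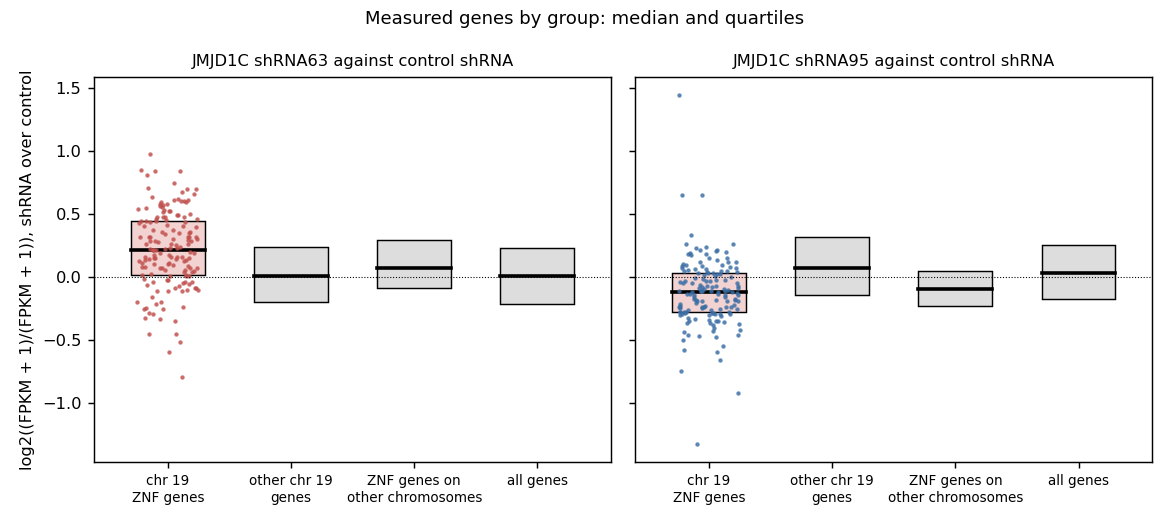
Log2 ratio of FPKM + 1, hairpin over control shRNA, for measured genes of 4 groups; boxes run from the lower to the upper quartile with the median as a bar, and points are the single ZNF genes of chromosome 19. The members' median is 0.22 with shRNA63 and -0.12 with shRNA95, against 0.01 and 0.07 for the other chromosome 19 genes.

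Among the members not called with shRNA63, ZNF548 stood at 7.12 FPKM against 3.54 FPKM in the control (log2 fold change 1.01, error 0.78, authors' deposited table). ZNF224, which encodes a KRAB repressor known to act with TRIM28, stood at 9.17 FPKM with shRNA63 against 4.81 FPKM in the control (log2 fold change 0.93, error 0.43, q = 0.389, authors' deposited table). At the other end ZNF254 stood at 10.8 FPKM with shRNA63 against 16.8 FPKM in the control, ZNF581 at 16.7 FPKM with shRNA63 against 24.3 FPKM in the control and ZNF175, known as a repressor of the HIV promoter in macrophages, at 5.35 FPKM with shRNA63 against 7.67 FPKM in the control, none of them called. ZNF792 stood at 3.77 FPKM with shRNA63 against 5.50 FPKM in the control, with q = 0.0728 in the authors' deposited table.

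With shRNA95 1 of 153 measured members was called, and it was lower. Over all measured genes 3.06% were called higher and 1.98% lower with shRNA95. ZNF792, a KRAB zinc finger gene at chr19:35447258-35454953 (hg19) that shares its locus with no other row, stood at 2.34 FPKM with shRNA95 against 5.33 FPKM in the control. Its log2 fold change was -1.18 (error 0.26, q = 0.00216) in the authors' deposited table. At an unadjusted p under 0.05, 12 members were lower and 1 higher, against 5.29% and 7.98% of all measured genes.

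The median log2 ratio of the members was -0.12 with shRNA95, and 107 were negative and 46 positive. Of 936 other measured chromosome 19 genes 548 were positive, with a median of 0.07, and the median of all 14391 measured genes was 0.03. ZNF genes on other chromosomes had a median of -0.10, with 146 of 210 negative, 1 called higher and none lower. Among the lowest members ZNF571 stood at 1.98 FPKM with shRNA95 against 3.99 FPKM in the control, ZNF175 at 4.34 FPKM with shRNA95 against 7.43 FPKM in the control and one row of ZNF709 at 1.18 FPKM with shRNA95 against 2.28 FPKM in the control, none of them called. The error of ZNF571 was 1.58 and that of ZNF709 1.94 on the log2 scale in the authors' deposited table, larger than either change.

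Among the highest with shRNA95, ZNF480 stood at 19.95 FPKM against 12.4 FPKM in the control, ZNF524 at 9.85 FPKM with shRNA95 against 5.93 FPKM in the control and ZNF317 at 20.9 FPKM with shRNA95 against 16.4 FPKM in the control. ZNF761 stood at 1.68 FPKM with shRNA95 against 1.24 FPKM in the control. None of these 4 was called. ZNF480 also stood at 21.0 FPKM with shRNA63 against 12.8 FPKM in the control of that table, again without a call. Its errors in the authors' deposited tables were 0.55 with shRNA63 and 0.54 with shRNA95 on the log2 scale.

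The 10 members called with shRNA63 were not called with shRNA95, where 3.06% of all measured genes were called higher and 1.98% lower. How many of all genes called with shRNA63 were also called with shRNA95 was not counted, so the 10 cannot be set against that share. ZNF808 and ZNF221 stayed under 1 FPKM in both groups of the shRNA95 comparison and so were not measured there. Most of the 10 stood below the control with shRNA95, as did 107 of the 153 measured members. ZNF416 stood at 0.822 FPKM with shRNA95 against 1.17 FPKM in the control, ZNF329 at 1.02 FPKM with shRNA95 against 1.48 FPKM in the control, ZNF256 at 0.826 FPKM with shRNA95 against 1.22 FPKM in the control and ZNF304 at 2.07 FPKM with shRNA95 against 2.73 FPKM in the control. Each of these 4 had an unadjusted p between 0.0237 and 0.0437 in the authors' deposited table. ZNF222 stood at 0.823 FPKM with shRNA95 against 1.47 FPKM in the control, and ZNF530 at 0.762 FPKM with shRNA95 against 1.18 FPKM in the control. ZNF155 stood at 1.22 FPKM with shRNA95 against 1.07 FPKM in the control, ZNF226 at 5.10 FPKM with shRNA95 against 4.20 FPKM in the control, ZNF808 at 0.894 FPKM with shRNA95 against 0.585 FPKM in the control and ZNF221 at 0.569 FPKM with shRNA95 against 0.608 FPKM in the control. The comparisons share the control libraries, so their values are given side by side with no measure of likeness.

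The difference between the hairpins was tested over 13870 genes, as the difference of the deposited log2 fold changes over their joined error (two-sided normal approximation, Benjamini-Hochberg adjustment). Of the 153 members ZNF416 alone passed at these errors, higher with shRNA63. In the shRNA95 table it reached 1 FPKM only in the control, as did ZNF222, ZNF530 and ZNF256, so their entry already needed a lower value with shRNA95. With entry by the mean FPKM of shRNA63, shRNA95 and control, a choice made after seeing the data, ZNF416 was again the 1 of 155 members that passed. Its difference was 1.48 (error 0.42, adjusted p = 0.0409, an approximation and not an exact test, since the tables give group values). Over all genes 0.353% passed as higher with shRNA63 and 0.728% as lower. ZNF329 had a difference of 1.56 (error 0.46, adjusted p = 0.0596, likewise not an exact test), and ZNF222 one of 2.06 (error 0.69), without passing. At an unadjusted p under 0.05, 10 members were higher with shRNA63 than with shRNA95 and none lower, against 1.88% and 3.55% of all genes. The median difference was 0.40 over the members, with 126 of 153 positive, against -0.04 over all genes and -0.06 over 900 other chromosome 19 genes. Where the error of each comparison holds, shared control libraries make the joined errors too wide. The shared part was not estimated but taken in every gene to be as large a part of the squared error as that of the hairpins. With it removed 10 members passed as higher with shRNA63 and none as lower. Of all 13870 genes 199 then passed as higher and 388 as lower. With errors scaled to the deposited p 7 members passed as higher and none as lower, against 58 and 150 of 13869 genes.

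The members stand in 10 clusters of at least 5, where a gap of over 500 kb opens a new cluster, and these hold 238 of the 252. They are numbered here in order along the chromosome. Cluster 7, on chr19:44010871-45004576 (hg19), had the highest median with shRNA63, at 0.60 over 17 measured members, with 16 positive. Of these 4 were called higher and 11 were higher at an unadjusted p under 0.05, against 2.49% and 6.99% of all measured genes. The 11 other measured genes in its span had a median of -0.28, with 8 negative and 1 called higher.

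The positive members of cluster 7 are next to each other. In the stretch from ZNF283 to ZNF235, on chr19:44331444-44809199 (hg19), all 13 measured members had ratios between 0.32 and 0.98 with shRNA63. This stretch was picked after its values were seen and carries no test. The 3 measured members before it, ZNF575, ZNF428 and ZNF576, were at 0.19, 0.09 and 0.04, and ZNF180 after it was at -0.20. Only 2 other genes were measured in the stretch, both positive. With shRNA95 11 of its members were measured, 5 positive and 6 negative, with a median of -0.004.

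Cluster 10, at the end of the long arm on chr19:57702868-59023780 (hg19), had 35 of 39 measured members positive with shRNA63, with a median of 0.32. Of these 5 were called higher, against 2.49% of all measured genes. With shRNA95 29 of its 38 were negative, with a median of -0.18. At an unadjusted p under 0.05, 7 were lower, against 5.29% of all measured genes. The other 22 genes measured in its span with shRNA63, which include the C2H2 genes ZSCAN18 and ZSCAN22, had a median of -0.08 and no call. The cluster holds ZNF274, which encodes a factor known to bind the 3′ ends of ZNF genes and to bring SETDB1 there, and which is named here after its values were seen. ZNF274 stood at 11.7 FPKM with shRNA63 against 8.93 FPKM in the control and at 8.04 FPKM with shRNA95 against 8.65 FPKM in the control, not called in either of the authors' deposited tables.

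Cluster 6, on chr19:36673188-38307940 (hg19), had all 19 measured members positive with shRNA63, with a median of 0.32 and none called. Of 12 other measured genes in its span 10 were positive, with a median of 0.32 and 1 called higher. These 12 are not all unlike the members. They include the C2H2 genes ZFP14, ZFP82 and ZFP30, at log2 ratios of 0.33, -0.01 and 0.19 with shRNA63. With shRNA95 14 of the 19 members were negative, with a median of -0.23.

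The other 7 clusters had medians with shRNA63 of 0.35 in cluster 2, 0.26 in cluster 5, 0.20 in cluster 8, 0.19 in cluster 4, 0.07 in cluster 3, 0.06 in cluster 9 and -0.09 in cluster 1. Only cluster 8 among these held a called member, ZNF808. The 12 measured members outside clusters had a median of -0.03 with shRNA63 and -0.12 with shRNA95. With shRNA95 the median was positive, by at most 0.03, in clusters 4 and 8 only. It was lowest in cluster 5, at -0.234, where all 5 measured members were negative. ZNF792 was the 1 called lower among them, against 1.98% of all measured genes.

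**Figure D3:**
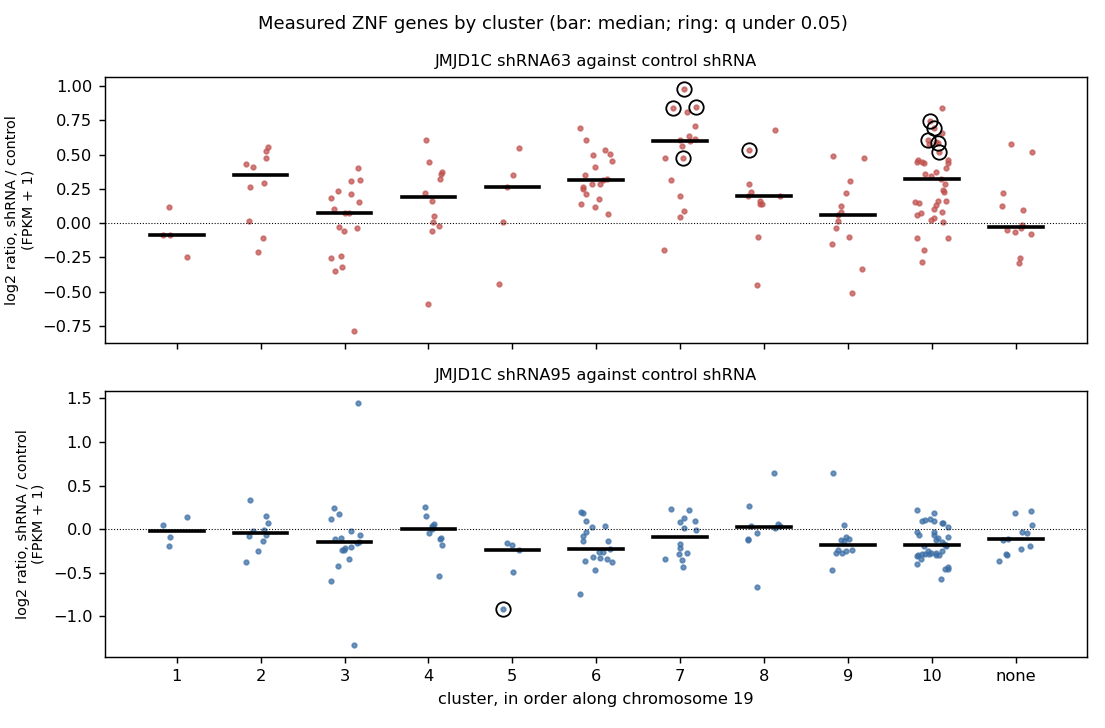
Log2 ratio of FPKM + 1 for each measured ZNF gene, by cluster in order along chromosome 19, with shRNA63 in the upper and shRNA95 in the lower panel; bars are medians, rings mark q under 0.05. Cluster 7 has the highest median with shRNA63 (0.60), and all members of cluster 6 lie above 0 there.

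**Figure D4:**
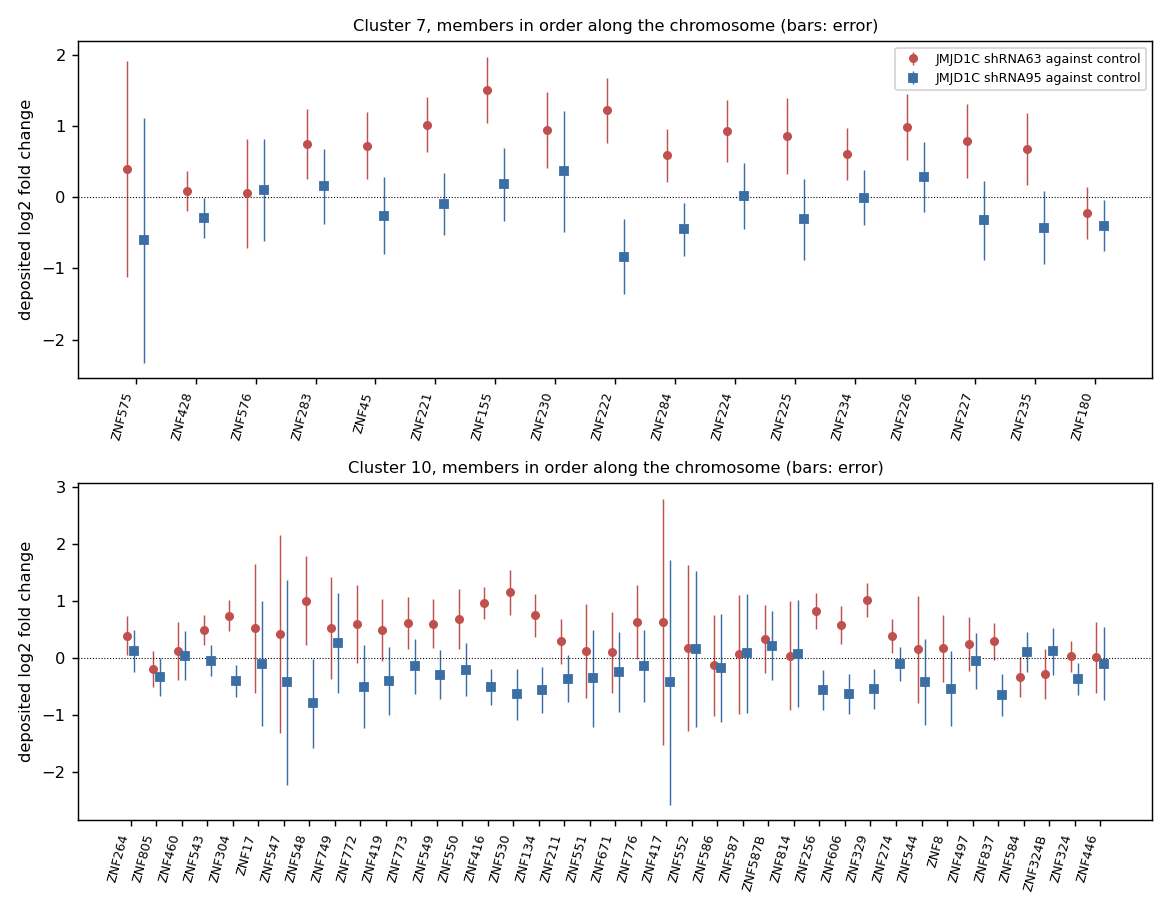
Deposited log2 fold change with its error for the members of cluster 7 (upper panel) and cluster 10 (lower panel) that were measured with shRNA63, in order along the chromosome, with shRNA63 as circles and shRNA95 as squares. In cluster 7 the run from ZNF283 to ZNF235 lies above 0 with shRNA63, while ZNF180 after it is at -0.23.

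Promoters of members called higher with shRNA63 are shown because these genes were called in the same direction. That of ZNF792, called lower with shRNA95, is shown beside them. All come from RefSeq on GRCh38.p14, 250 bases before to 50 after the gene start, which is another build than that of the tables. The table holds 256 entries for 210 of the 245 symbols, and 8 of the 10 members called with shRNA63 have one. ZNF155 and ZNF221 do not. Capitals mark CCGGAAG, the core of an ETS factor site, or TTACCCA, each on either strand; they do not overlap each other, and CTTCCGGAAG in ZNF256 holds the first on both strands. ZNF416, ZNF256, ZNF304 and ZNF329 are from cluster 10, and ZNF222 and ZNF226 from cluster 7. The set was picked with the motifs in view, to show called members with both, with 1 and with neither. ZNF329, called higher with shRNA63, and ZNF792, called lower with shRNA95, hold neither, and ZNF304 holds TTACCCA alone. Of the called members not printed, ZNF530 holds both and ZNF808 holds CCGGAAG.
ZNF416 (chr19:57578862-57579161, minus strand): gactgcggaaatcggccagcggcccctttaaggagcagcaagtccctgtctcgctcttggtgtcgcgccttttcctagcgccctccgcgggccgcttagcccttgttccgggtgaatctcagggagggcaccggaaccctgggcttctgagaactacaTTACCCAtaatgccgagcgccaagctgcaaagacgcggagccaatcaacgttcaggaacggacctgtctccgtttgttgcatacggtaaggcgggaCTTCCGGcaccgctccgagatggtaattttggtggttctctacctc
ZNF256 (chr19:57947657-57947956, minus strand): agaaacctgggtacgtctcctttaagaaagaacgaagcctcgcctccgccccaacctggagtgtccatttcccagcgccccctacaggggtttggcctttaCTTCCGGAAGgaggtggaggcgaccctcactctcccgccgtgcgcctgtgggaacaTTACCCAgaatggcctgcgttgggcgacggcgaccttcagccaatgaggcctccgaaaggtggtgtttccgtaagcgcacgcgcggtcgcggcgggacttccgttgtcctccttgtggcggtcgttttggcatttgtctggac
ZNF304 (chr19:57351021-57351320, plus strand): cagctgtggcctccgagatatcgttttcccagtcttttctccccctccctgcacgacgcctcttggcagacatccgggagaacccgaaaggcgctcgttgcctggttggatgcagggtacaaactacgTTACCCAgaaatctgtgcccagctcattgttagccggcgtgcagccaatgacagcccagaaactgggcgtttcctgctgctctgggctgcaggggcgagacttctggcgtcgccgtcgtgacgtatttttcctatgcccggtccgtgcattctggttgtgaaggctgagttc
ZNF329 (chr19:58150740-58151039, minus strand): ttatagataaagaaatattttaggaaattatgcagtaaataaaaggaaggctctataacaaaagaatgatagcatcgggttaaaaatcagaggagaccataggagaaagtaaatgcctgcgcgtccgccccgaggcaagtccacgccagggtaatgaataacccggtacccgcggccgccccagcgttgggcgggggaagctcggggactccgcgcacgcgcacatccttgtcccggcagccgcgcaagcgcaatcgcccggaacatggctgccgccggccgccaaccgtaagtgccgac
ZNF222 (chr19:44025129-44025428, plus strand): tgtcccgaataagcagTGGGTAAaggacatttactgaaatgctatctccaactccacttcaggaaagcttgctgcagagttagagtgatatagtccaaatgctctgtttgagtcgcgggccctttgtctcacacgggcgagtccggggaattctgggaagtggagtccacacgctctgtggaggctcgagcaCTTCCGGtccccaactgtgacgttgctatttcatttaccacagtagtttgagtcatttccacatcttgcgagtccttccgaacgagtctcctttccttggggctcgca
ZNF226 (chr19:44164850-44165149, plus strand): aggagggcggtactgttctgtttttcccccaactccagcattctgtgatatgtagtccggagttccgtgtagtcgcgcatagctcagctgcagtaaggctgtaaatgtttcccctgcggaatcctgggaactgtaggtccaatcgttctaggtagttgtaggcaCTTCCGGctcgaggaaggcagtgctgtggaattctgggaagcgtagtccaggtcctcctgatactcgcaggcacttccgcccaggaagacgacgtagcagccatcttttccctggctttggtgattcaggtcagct
ZNF792 (chr19:34964180-34964479, minus strand): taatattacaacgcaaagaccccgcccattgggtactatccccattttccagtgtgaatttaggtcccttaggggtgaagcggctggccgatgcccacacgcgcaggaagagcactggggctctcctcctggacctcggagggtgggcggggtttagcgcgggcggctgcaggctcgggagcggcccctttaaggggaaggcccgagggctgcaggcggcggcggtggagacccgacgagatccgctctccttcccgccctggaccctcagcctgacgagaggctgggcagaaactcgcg

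CCGGAAG was in 101 of the 256 member promoters (39.5%), against 13.97% of 1661 other chromosome 19 promoters and 10.3% of all 35116, and in 6 of the 8 called members with an entry. It was in 62.8% of the entries of cluster 10 and 30.0% of those of cluster 7. Measured members with it had a median log2 ratio of 0.28 with shRNA63 (67 genes, 6 called), and those without it had 0.16 (78 genes, 2 called). With shRNA95 these medians were -0.12 and -0.12. TTACCCA, a motif picked after reading the called promoters, was in 34.9% of the cluster 10 entries, 8.98% of all member entries and 2.70% of all promoters. The RUNX core TGTGGT, the site AML1 and AML1-ETO are known to bind, was in 15.2% of member promoters and 13.1% of all.

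Members differ from other genes of the chromosome in base composition. The longest annotated transcript of measured members had a median GC content of 43.2% with shRNA63, against 59.3% for the other chromosome 19 genes, and 98.8% of the members could be matched. Over genes that are not ZNF, the median log2 ratio with shRNA63 lay between -0.01 and 0.02 in every GC class. With shRNA95 it ran from -0.02 at under 40% GC to 0.09 at over 60% GC, and the part of GC in the gap to the other chromosome 19 genes was not tested beyond the values that follow. The members had medians of 0.22 with shRNA63 and -0.12 with shRNA95, against -0.01 and 0.01 for non-ZNF genes with GC inside the quartiles of the members. The 47 other chromosome 19 genes of that GC range had a median of 0.03 with shRNA63, and 48 of them had -0.02 with shRNA95. Their medians varied between GC classes. From 40% to 45% GC, the class with most members, 65 members had a median of 0.23 with shRNA63 and 33 other chromosome 19 genes had 0.20. Under 40% GC the medians were 0.28 for 35 members and -0.01 for 19 other chromosome 19 genes, and from 45% to 50% GC they were 0.28 for 28 members and -0.02 for 55 other chromosome 19 genes. Fewer members lay above that. From 50% to 55% GC the medians were 0.17 for 8 members and -0.02 for 104 other chromosome 19 genes. From 55% to 60% GC they were -0.13 for 6 members and -0.004 for 270 others, and over 60% GC 0.11 for 16 members and 0.02 for 393 others.

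Level was a second difference. The 32 members with under 2 FPKM in the control, which include 8 of the 10 called, had a median of 0.33 with shRNA63. At that level the median was 0.41 for 15 ZNF genes on other chromosomes and 0.15 for genes that are not ZNF. For 146 other chromosome 19 genes it was 0.11. Called higher at that level were 5 of the 15 ZNF genes on other chromosomes, 5 of the 146 and 101 of 2152 genes that are not ZNF. Among these 32 are the 7 members that reached 1 FPKM only with shRNA63 and so had to be positive. Between 2 and 5 FPKM the median was 0.28 for 63 members and 0.03 for genes that are not ZNF. Between 5 and 10 FPKM it was 0.16 for 38 members and 0.01 for genes that are not ZNF. Called higher between 2 and 5 FPKM were 2 of the 63 members, 1 of 46 ZNF genes on other chromosomes and 60 of 1955 genes that are not ZNF. No member with 5 FPKM or more in the control was called. Classes by the mean FPKM of both groups, a choice made after seeing the data, treat the groups alike at entry, though 1 high group can still carry a gene in. Between 1 and 2 FPKM of that mean 20 members had a median of 0.21, 9 ZNF genes on other chromosomes 0.40 and genes that are not ZNF 0.03. Between 2 and 5 FPKM of that mean the median was 0.27 for 63 members. It was 0.08 for 52 ZNF genes on other chromosomes and 0.04 for genes that are not ZNF. With shRNA95 26 members under 2 FPKM in the control had a median of -0.14. At that level 11 ZNF genes on other chromosomes had 0.15, 154 other chromosome 19 genes 0.06 and genes that are not ZNF 0.12. Between 2 and 5 FPKM in the control these shRNA95 medians were -0.10, -0.07, -0.02 and -0.02.

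**Figure D5:**
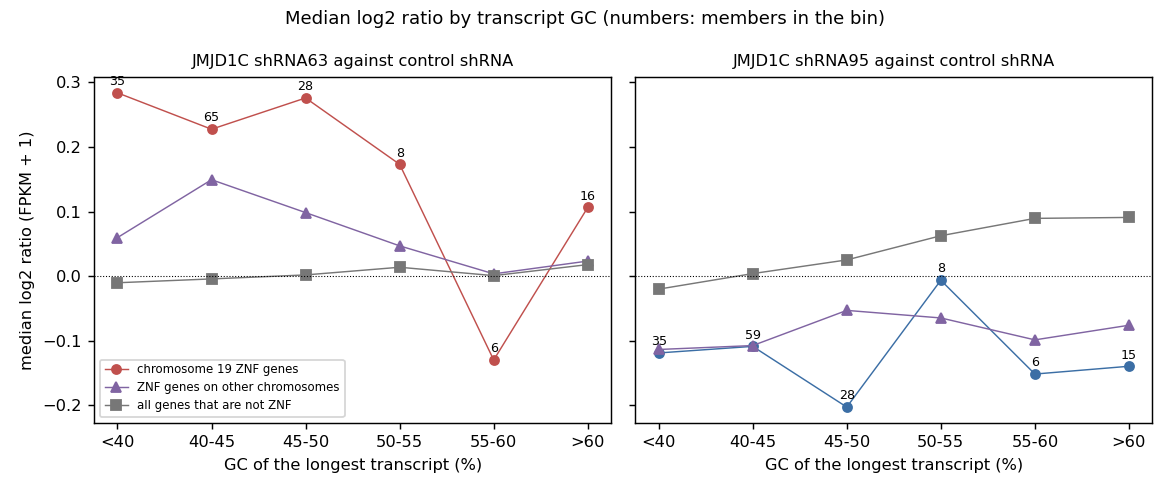
Median log2 ratio of FPKM + 1 by GC class of the longest transcript, for ZNF genes of chromosome 19 (circles, with their number), ZNF genes on other chromosomes (triangles) and all genes that are not ZNF (squares). With shRNA63 the squares stay between -0.01 and 0.02, while the members with under 50% GC lie between 0.23 and 0.28.

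The machinery through which KRAB factors act was listed as 23 genes. Of these, all measured, 1 was called with shRNA63 and none with shRNA95 (2 and 1 at an unadjusted p under 0.05, all lower), with medians of -0.15 and -0.15. The 1 called is 4.35% of the list, against 3.25% of all measured genes called lower with shRNA63. UHRF1, which binds hemimethylated DNA and keeps DNA methylation in place, fell with shRNA63 to 23.2 FPKM, against 41.7 FPKM in the control, a log2 fold change of -0.84 (error 0.25, q = 0.00214) in the authors' deposited table. SUV39H2, an H3K9 methyltransferase, stood at 26.4 FPKM with shRNA63 against 44.4 FPKM in the control, with q = 0.0612 in the authors' deposited table. TRIM28, itself a chromosome 19 gene, stood at 1166 FPKM with shRNA63 against 1170 FPKM in the control and at 1054 FPKM with shRNA95 against 1134 FPKM in the control, without a call. SETDB1 stood at 28.0 FPKM with shRNA63 against 23.8 FPKM in the control, and at 20.6 FPKM with shRNA95 against 23.1 FPKM in the control, also without a call. Of 10 H3K9 demethylase genes JMJD1C, the targeted gene, alone was called with shRNA63, and none was with shRNA95. At an unadjusted p under 0.05, 2 were lower with shRNA95, against 5.29% of all measured genes. All 10 ratios were negative with shRNA95, with a median of -0.20, where 46.0% of all measured genes were negative.

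AML1-ETO knockdown gave no call among the members. Among 160 members tested there that reached 1 FPKM in a table of JMJD1C knockdown none had q under 0.05 in the authors' deposited table, where 0.246% of such genes were called higher and 0.246% lower. This compares 1 library with 1 library and has no replicate check. RUNX1T1, the gene of the ETO part of the fusion, had a log2 fold change of -1.04 there (error 0.87). It was not called, so it is no firm check of the knockdown. At an unadjusted p under 0.05 none was higher and 1 lower, against 1.95% and 2.23% of all such genes. That member was ZNF792, with a log2 fold change of -1.64 (error 0.68, q = 0.599) in the authors' deposited table. ZNF254 (-1.12), ZNF175 (-0.66), ZNF146 (-0.66) and ZNF260 (-0.66) came next, and ZNF524 (0.80), one row of ZNF788 (0.68), ZNF439 (0.63), ZNF558 (0.59) and ZNF546 (0.51) were highest in the authors' deposited table. The median over the members was 0.03, with 84 of 160 positive, against 0.09 for the other chromosome 19 genes and -0.06 for all such genes. Cluster 7 had 14 of 17 members positive there, with a median of 0.25, and its called members ZNF155, ZNF222 and ZNF226 were at 0.30, 0.34 and 0.25 with errors between 0.89 and 1.23 in the authors' deposited table, while ZNF221 was at -0.0004 (error 0.84).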

How the data were processed

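RNA sequencing of Kasumi-1 cells was read from 3 deposited tables whose columns are those of Cuffdiff, per the file headers. TopHat2 2.0.8b, Cuffdiff 2.1.1 and hg19 are named in the submitters' processing notes, with no role. The deposited FPKM is 1 value per group, scaled by the authors within each table (the control was 1.03 times as high in the shRNA63 table as in the other), so levels were compared within a table. The log2 fold change, the test statistic (a score per gene), the p-value and the q-value were used as deposited by the authors. The 2 FPKM columns of the AML1-ETO table belong to another series and were not used; a level of 1 FPKM in a JMJD1C table took their place. In the JMJD1C tables the normal deviate of the deposited p-value had a median of 1.42 times the statistic. Errors from the statistic are thus the wider reading for most genes. For some they are the narrower one, as for CHD4 with shRNA63, at -0.47 (error 0.21) with a deposited Cuffdiff p of 0.23. No test across libraries could be made, since only group values are given, and depth per library is unknown.

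Log2 ratios of FPKM + 1, clusters, GC (GENCODE 29 transcripts, by gene ID) and promoter motifs (RefSeq, GRCh38.p14, by symbol) were computed in Python 3.11.15 with pandas 2.3.3 and scipy 1.17.1. In the hairpin test the 10th percentile was the smallest error used. The test was run on simulated data with independent hairpins, the errors it assumes and no shared control. That run checks the computation and cannot check those errors. Coordinates were shifted to count from 1. Named members are all that were called, the 5 highest and 5 lowest of each table, the 5 most abundant in the control and those passing the hairpin test. The members, gene lists and tests were chosen with earlier results of these data known. Protein features were not analysed here.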

Additional observations from a re-analysis of the deposited data

Results flagged for a closer look

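With the errors taken from the authors' statistic, ZNF416 was the 1 of 153 members whose response differed between the hairpins by a test of the difference itself. Over all 13870 genes 0.353% passed as higher with shRNA63 and 0.728% as lower. With errors scaled to the deposited p 7 members passed, ZNF416 with ZNF304, ZNF256, ZNF222, ZNF329, ZNF530 and ZNF134. Of all 13869 genes 58 then passed as higher with shRNA63 and 150 as lower. With the shared control part removed, at a size that was assumed and not estimated, 10 members did, with 199 of all genes higher and 388 lower. The difference of the log2 fold changes of ZNF416 was 1.48, from 0.97 with shRNA63 and -0.51 with shRNA95 in the authors' deposited tables, with an adjusted p of 0.0409 (two-sided normal approximation, Benjamini-Hochberg adjustment over 13870 genes). The shRNA95 value was not called against the control, and JMJD1C mRNA gives no check of the shRNA95 label. In the shRNA95 comparison ZNF416, ZNF222, ZNF256 and ZNF530 reached 1 FPKM only in the control, so their entry already needed a lower value there.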

How the results depend on the processing

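The positive median with shRNA63 and the negative median with shRNA95 kept their sign under every alternative run, from 0.16 to 0.29 and from -0.15 to -0.11, also without clusters 7 and 10, a choice made after seeing the data. Their difference from the other chromosome 19 genes kept its sign in these alternatives too, from 0.15 to 0.27 with shRNA63. With shRNA95 the difference was -0.19, but -0.11 against other chromosome 19 genes of like FPKM and -0.10 against those of like GC, the last added after seeing the data. Single GC classes were not among the alternatives, and the sign did not hold in all of them. From 55% to 60% GC the shRNA63 medians were -0.13 for 6 members and -0.004 for 270 other chromosome 19 genes. Under 40% GC the shRNA95 medians were -0.12 for 35 members and -0.13 for 20 other chromosome 19 genes. The number called higher with shRNA63 was 10, with 6 at q under 0.01, 31 at an unadjusted p under 0.05 and 4 without shared loci, where fewer members enter. Called lower with shRNA63 were 0, with 1 at q under 0.1 and 2 at an unadjusted p under 0.05. With shRNA95 the unadjusted p gave 1 higher and 12 lower in place of 0 and 1, and for AML1-ETO knockdown 1 lower in place of 0. For the hairpin difference 1 member passed, against 7 with errors scaled to the deposited p, 10 at an unadjusted p under 0.05 and 10 with an assumed shared control part removed. Leaving out a library was not run, since the tables hold group values. No paired analysis was possible because the columns carry no replicate number. Most members lie under 5 FPKM, and read counts are not given, so the depth behind each value is unknown.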

Other observations

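C2H2 genes of chromosome 19 with other names gave 8 measured genes of 20. With shRNA63 6 of the 8 log2 ratios were positive, with a median of 0.27 and none called, and with shRNA95 4 were positive, with a median of -0.08 and none called. ZSCAN5A stood at 7.73 FPKM with shRNA63 against 3.90 FPKM in the control (log2 fold change 0.99, error 0.65, authors' deposited table). ZSCAN18 had the widest spread between hairpins of the 8, at 20.001 FPKM with shRNA63 against 11.9 FPKM in the control and at 3.64 FPKM with shRNA95 against 11.5 FPKM in the authors' deposited tables, with errors of 1.51 and 1.31 on the log2 scale and no call. ZBTB7A, a repressor of the POK family known in blood cell development, stood at 6.63 FPKM with shRNA63 against 5.33 FPKM in the control and at 7.24 FPKM with shRNA95 against 5.16 FPKM, without a call.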
